A study of Mus musculus with 81 samples.

Results

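Mouse thymic lymphomas were ordered by how strongly they expressed the genes of chromosome 10, and the 10 highest mice were compared with the 10 lowest, out of 31 mice with a lymphoma and 40 mice in the series. The ordering value of a mouse was the median over 740 chromosome 10 genes of the log2 ratio to normal thymus, taken from log2(CPM+1) with CPM as counts scaled to a common library total and centred on the median of all 14912 autosomal genes of that mouse. RNA sequencing had been done on 81 libraries, and the biopsies of a mouse were summed before any value was computed. All mice were of the C57BL/6 x 129S4Sv/Jae background and carried Plk4(Col1a1), rtTA(Rosa) and centrin-GFP(Rosa), so the controls held the inducible Plk4 transgene too. The lymphoma groups were untreated p53-/- (10 mice), p53-/- given doxycycline (9 mice) and p53+/- given doxycycline (12 mice). Doxycycline was given for 2 weeks from 30 days of age. The reference was normal thymus of 8 untreated p53+/+ mice, and 1 untreated p53+/- normal thymus was described beside it. The age at which tissue was taken is not given in the sources used here.

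Plk4 is the kinase that starts the duplication of centrioles, and its excess leads to extra centrosomes and to errors in chromosome segregation. When a chromosome is gained or lost, the RNA of most of its genes tends to move with the number of copies. The median over a whole chromosome is therefore taken as a relative reading of its dosage, while a single gene also answers to its own regulation. Thymic lymphomas of p53-deficient mice are usually T-cell tumours with an abnormal set of chromosomes. Mouse chromosome 10 carries, among others, the kinase gene Fyn, the cell cycle kinase genes Cdk1, Cdk2 and Cdk4, the p53 inhibitor gene Mdm2 and the transcription factor gene Myb. No DNA copy number was analysed here, and in bulk tissue a change in a part of the cells cannot be told apart from a smaller change in all of them.

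Total counts ran from 1.03 M to 26.87 M per library and from 5.01 M to 98.59 M per mouse. Mouse 643, an untreated p53-/- mouse of the high class, stood apart, with 42.1% of its counts in 10 genes against 4.42% to 9.59% in the other 9 mice of its class. The ribosomal RNA gene CT010467.1 alone took 26.8% of them. Mouse 881, the highest mouse of all, summed to 146 CPM over the 10 T-lineage markers and to 4030 CPM over the 8 B-lineage markers. The other 9 mice of the high class ran from 2130 to 4160 CPM and from 10.4 to 456 CPM, and the low class from 2110 to 4200 CPM and from 7.8 to 107 CPM. Mouse 881 therefore went against the T-lineage markers that the other 19 mice carried. Among the normal thymuses mouse 387 stood apart, with 697 CPM of T-lineage, 1580 CPM of B-lineage and 10100 CPM of fat markers. The other p53+/+ normal thymuses had 2920 to 4420, 108 to 146 and 692 to 3920 CPM. The genes that tell the sexes apart went against the labelled sex in 3 mice of the series, of which 2 (mice 869 and 870) were in the low class. Values without mice 643 and 881 are given beside the chromosome-wide results and where they move a list.

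The chromosome 10 value averaged 0.114 ± 0.0977 (SD, n = 10) in the high class and -0.203 ± 0.0393 (SD, n = 10) in the low class. The 11 lymphomas between them averaged -0.0816 ± 0.0465. The 8 p53+/+ normal thymuses lay between -0.0176 and 0.0254, and the p53+/- normal thymus was at 0.0056. The mice were chosen by these measured values, which are given as a description, with no test. For scale, expression in proportion to 3 copies in place of 2 gives a log2 ratio of 0.585. Without mouse 643 the high class averaged 0.127, without mouse 881 it averaged 0.0961 and without both 0.108.

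**Figure D1:**
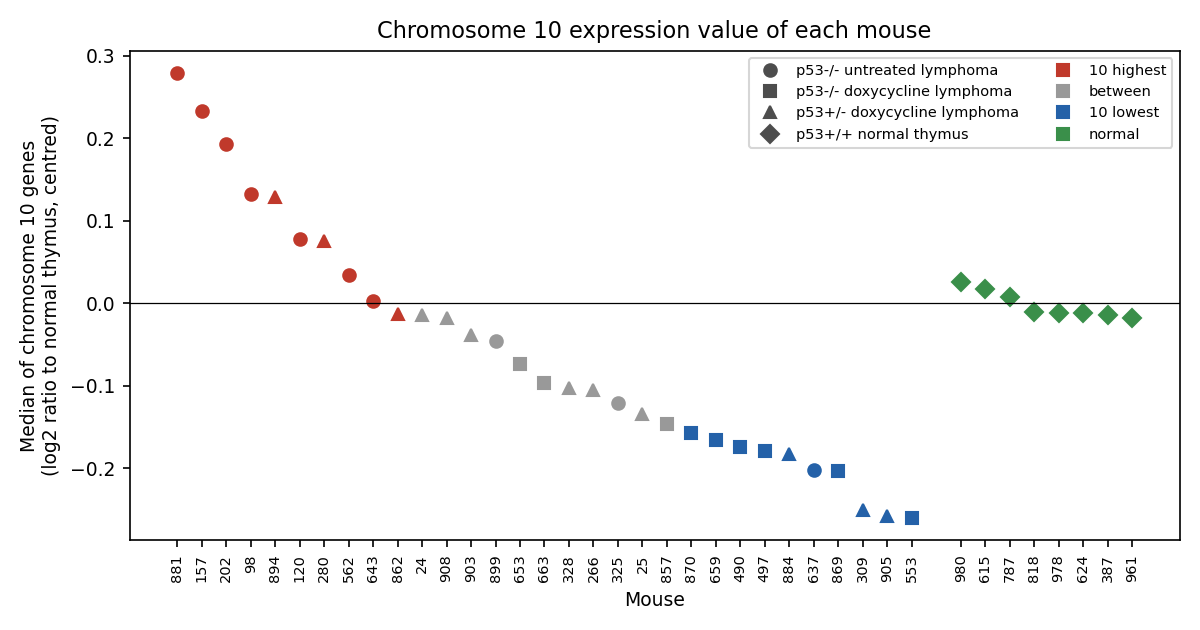
Chromosome 10 value of each mouse (y axis, median centred log2 ratio to normal thymus of 740 genes), with the 31 lymphomas ordered from high to low and the 8 p53+/+ normal thymuses at the right. Colour gives the class and the marker shape gives genotype and treatment; the 10 lowest lymphomas lie at -0.157 or below, under every normal thymus, while 2 of the 10 highest lie within the normal range.

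The high class was spread out. Mice 881, 157 and 202, all untreated p53-/-, led with 0.279, 0.232 and 0.193. Mice 98, 894, 120, 280 and 562 followed with 0.133, 0.129, 0.078, 0.0758 and 0.034. Mouse 643 at 0.0032 and mouse 862 at -0.0135 lay inside the range of the normal thymuses, so 8 of the 10 exceeded every normal thymus. With normal mouse 387 left out of the reference 7 of the 10 did, and mouse 857 would replace mouse 659 in the low class. The first mouse left out of the high class, mouse 24, had -0.0141. The low class was tight, from -0.157 in mouse 870 to -0.26 in mouse 553, and the first mouse left out, mouse 857, had -0.147. The step at either border of the classes was thus small beside the spread within the high class.

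Separate biopsies were available from 4 high and 4 low mice. The 4 biopsies of mouse 881 ran from 0.272 to 0.358, those of mouse 202 from 0.189 to 0.225 and those of mouse 894 from 0.0774 to 0.172. The 5 biopsies of mouse 862 ran from -0.0876 to 0.0361 and crossed the normal range. In the low class the 4 biopsies of mouse 870 ran from -0.227 to -0.0569, a range of 0.17 that is wider than that between the 10 low mice. Those of mouse 884 ran from -0.228 to -0.102, those of mouse 869 from -0.229 to -0.126 and those of mouse 905 from -0.285 to -0.217. All 16 lay below the normal thymuses. Among the lymphomas between the classes, biopsies of mouse 908 ran from -0.187 to 0.121 and those of mouse 857 from -0.249 to 0.0208, so single biopsies of these mice reached values of both classes. The highest biopsy of the low class, at -0.0569, lay above the lowest of mouse 862.

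The level of the low class against normal thymus was read on several centres. Each value is a distance from that mouse's median gene, and a mouse with other chromosomes raised is drawn down on the rest by construction. With each mouse centred instead on the genes of chromosome 6, the autosome whose value varied least among the 31 lymphomas (SD 0.083), the high class stood at 0.401 ± 0.134 and the low class at 0.157 ± 0.0637 (SD, n = 10 each). Chromosome 6 was itself below normal in all 20 mice, at means of -0.29 and -0.36, so this centre lifts every chromosome of a lymphoma by construction. On it 9 of the 10 low mice lay above every normal thymus, where on the original scale 10 of 10 lay below. Centred on the median of the 19 chromosome medians, the low class averaged -0.147 ± 0.0827 and 10 of 10 lay below. With no centring it averaged -0.307 ± 0.0797, with 2 of 10 below every normal thymus and 0 above. That count rests on normal mouse 387, at -0.3665 uncentred. The next lowest p53+/+ normal thymus had -0.144, above the -0.208 of the highest low mouse. The chromosome 6 centre would keep 8 of the 10 high mice and 6 of the 10 low mice in their class. With no centring 8 and 5 were kept, and with the chromosome medians 7 and 8. The distance between the classes was 0.317 on the original scale, 0.245 on chromosome 6, 0.259 on the chromosome medians and 0.28 uncentred. It was 0.385 over genes that averaged 10 CPM or more and 0.166 over genes at 0.1 CPM or more, where the low class averaged -0.102. The centres on chromosome 6 and on the chromosome medians were chosen after seeing the data.

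The labels were unevenly divided. The high class held 7 untreated p53-/- mice, 3 treated p53+/- mice and 0 treated p53-/- mice, and the low class held 1, 3 and 6 of these. Treated mice were 3 of 10 in the high class and 9 of 10 in the low class (two-sided Fisher's exact test, p = 0.0198, adjusted p = 0.0594 over the 3 labels tested). The p53-/- genotype was 7 of 10 in both (p = 1), and 6 against 3 mice were labelled male (p = 0.37, adjusted p = 0.555). By labelled group the 10 untreated p53-/- lymphomas averaged 0.0583 ± 0.156 on chromosome 10 (SD). The 9 p53-/- lymphomas given doxycycline averaged -0.162 ± 0.0549 and the 12 p53+/- lymphomas -0.0761 ± 0.12. Since 7 of the 10 high mice and 1 of the 10 low mice came from the untreated p53-/- group, class and treatment can be told apart only through the mice that break this split.

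Along chromosome 10 the difference ran from end to end. All 14 windows of 10 Mb were higher in the high class, by 0.15 to 0.40 log2 units. Without mice 643 and 881 all 14 were still higher, by 0.13 to 0.42. In 4 windows all 10 high mice exceeded all 10 low mice. These began at 30, 60, 80 and 120 Mb and held 34, 53, 151 and 108 genes. In the window that began at 80 Mb, which holds Eef2 and Tcf3, the high class averaged 0.20 ± 0.13 and the low class -0.10 ± 0.06. In the window that began at 120 Mb, which holds Cdk4, Stat6 and Tbk1, the averages were 0.03 ± 0.18 and -0.35 ± 0.08. In the window that began at 30 Mb they were 0.13 ± 0.08 and -0.26 ± 0.07. The smallest step, 0.15, was in the window that began at 40 Mb, where the averages were 0.23 ± 0.10 and 0.09 ± 0.13 and only 2 of the 10 high mice exceeded all low mice. The windows that began at 100 and 130 Mb held just 12 and 3 genes and spread widely, with SDs of 0.67 and 0.35 in the high class. Positions are those of build GRCm38 (mm10).

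**Figure D2:**
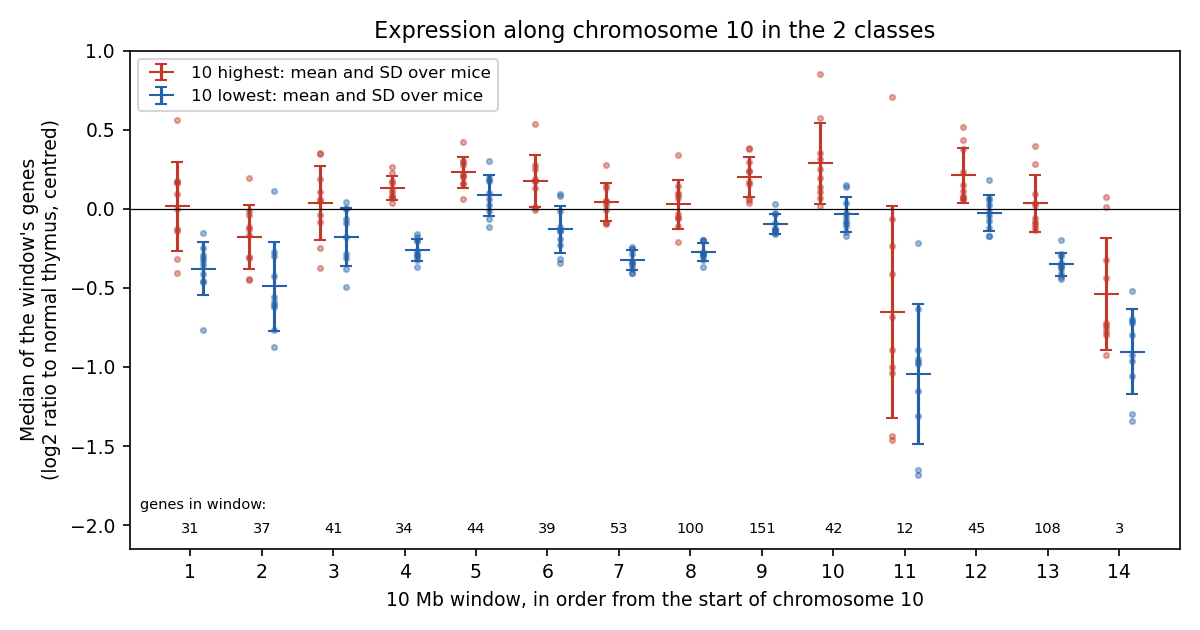
Median centred log2 ratio to normal thymus of the genes in each 10 Mb window (y axis) against the order of the window along chromosome 10 (x axis), with points for mice and bars for mean and SD of the 10 high and the 10 low mice. The high class is above the low class in all 14 windows, and both follow the same profile, with the lowest values in the thinly filled windows 11 and 14.

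Single mice did not all show a whole-chromosome step. Set against the mean of the 11 lymphomas between the classes, mice 309 and 553 of the low class were below it in 14 of 14 windows and mouse 659 in 13. Mouse 884 and mouse 869 were below in 10. In the high class, mice 881, 202, 98 and 120 were above it in 13 of 14 windows and mice 157 and 280 in 11. Mouse 862 was above in 10, with a median window step of 0.04, and mouse 643 in 9, with 0.07. The largest median steps were 0.40 in mouse 881 and 0.30 in mouse 157.

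Of the 740 genes of chromosome 10, 594 (80.3%) had a higher mean in the high class, against 46.9% of the 14172 genes of the other autosomes. The median gene of chromosome 10 differed by 0.28 and its quartiles were 0.053 and 0.475, while the median gene elsewhere differed by -0.02. The share was 71.8% of the 131 genes at a mean CPM of 1 up to 3, 89.5% of the 219 genes at 30 up to 100 and 84.0% of the 106 genes at 100 or more. Without mice 643 and 881 it was 79.3% against 45.7%. These genes chose the mice, so nothing is read from their share.

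**Figure D3:**
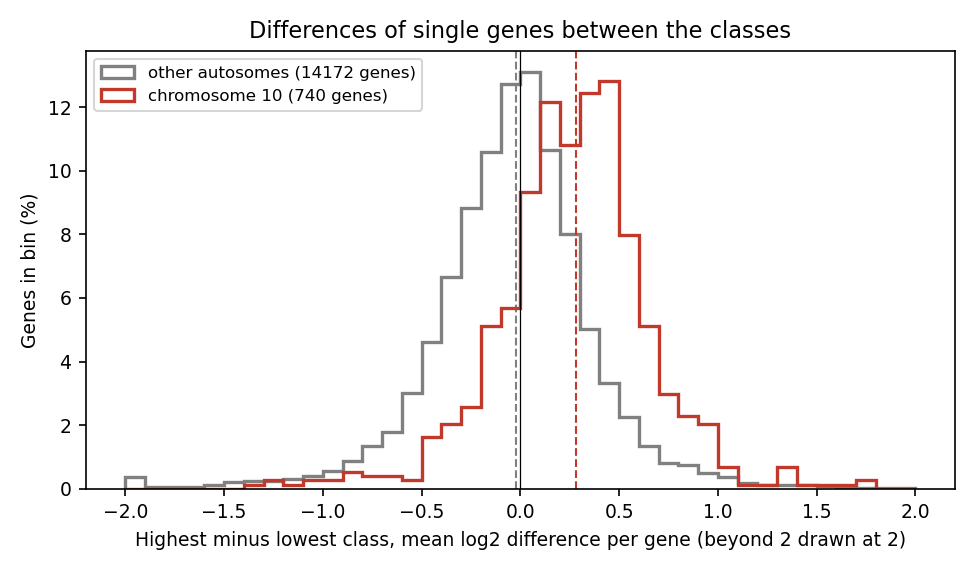
Percent of genes (y axis) by mean log2 difference between the high and the low class (x axis) for the 740 genes of chromosome 10 and the 14172 genes of the other autosomes, with dashed lines at the medians. The chromosome 10 curve is shifted as a whole, with its median at 0.28 against -0.02.

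On the centred scale 5 genes of chromosome 10 separated the classes completely, namely Tab2, Zbtb24, Fyn, Agap2 and Eef2, and 0 separated them in the other direction. On the other autosomes, 0 genes were higher in all high mice (a background of 0%) and 3 were lower, a background of 0.0212%. Fyn (ENSMUSG00000019843, positions 39368855 to 39565381) encodes a Src-family kinase that acts beside Lck below the T-cell receptor. Its level, in CPM scaled by TMM factors as are all levels below, ran from 107 over a median of 177 to 238 in the high class and from 63.5 over 82.2 to 94.4 in the low class. Normal thymuses had 71.7 to 150. The difference was 1.03 log2 units, well beyond the 0.28 of the median chromosome 10 gene, and the highest mouse for Fyn was mouse 643, whose chromosome 10 value was near 0. Eef2, the elongation factor that moves the ribosome along the message, ran from 2730 over 3430 to 4400 CPM in the high class and from 1690 over 2080 to 2490 CPM in the low class, where normal thymuses had 1640 to 2370. The low class overlapped the normal range of Eef2 and all 10 high mice lay above it. Tab2, an adaptor of the kinase TAK1, differed by 0.668, Zbtb24, a zinc finger protein, by 0.565, and Agap2, a GTPase-activating protein for Arf, by 1.015. Without mice 643 and 881 the same 5 genes and Pias4 separated the classes.

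Among 11 listed genes of the cell cycle and the p53 pathway on chromosome 10, 10 had a positive difference, beside 80.3% of all 740 genes. Their median was 0.20. Btg1, an antiproliferative gene often mutated in lymphoid tumours, ran from 118 over 192 to 968 CPM in the high class and from 55 over 117 to 148 CPM in the low class, a difference of 1.12. Both classes lay mostly below normal thymus, which had 276 to 482. Cdk4, the G1 kinase that works with D cyclins, ran from 241 over 360 to 551 CPM and from 173 over 234 to 356 CPM, a difference of 0.48 with overlap. Both classes held more Cdk4 than most normal thymuses, which had 106 to 203. Mdm2, which marks p53 for destruction, differed by 0.28, from 62.9 over 88.9 to 114 CPM against 48 over 68.1 to 82.6 CPM. Cdk1, the mitotic kinase, had 120 over 200 to 285 CPM and 143 over 171 to 242 CPM, and its mean centred ratio was 1.72 in both classes. Cdk2 differed by 0.13, Timeless by 0.25 and Apaf1 by 0.20, while Perp and Plagl1 each differed by 0.01.

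Among 12 measured genes of transcription and chromatin, 11 had a positive difference, beside 80.3% of all 740 genes of chromosome 10. Their median was 0.47. Jmjd1c, a member of the JmjC demethylase family, ran from 80.7 over 103 to 237 CPM in the high class and from 40.7 over 57.7 to 97.8 CPM in the low class. It differed by 0.86, and 5 of the 10 high mice were above every low mouse. Stat6, which relays interleukin 4 signals, differed by 0.52, with 92.1 to 174 CPM against 68.4 to 107 CPM. Tcf3, an E protein of lymphocyte development, had 8 of 10 high mice above all low mice and differed by 0.47. Dot1l, the histone H3 lysine methyltransferase, differed by 0.56. Tet1, which oxidises methylcytosine, differed by 1.52 but ranged from 0.896 to 29 CPM and from 0.0713 to 13.6 CPM. Myb, needed for thymocyte development, was the 1 listed gene of this set with a negative difference, -0.17, from 35.2 over 348 to 509 CPM against 182 over 318 to 419 CPM. Its medians were close, and mouse 120 at 35.2 CPM was far below the other high mice. Hmga2 was listed but did not reach a mean of 1 CPM.

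Among 11 signalling genes 7 had a positive difference, with a median of 0.34. Beside Fyn, Tbk1, the kinase of innate immune signalling, ran from 42.3 over 61.1 to 75.5 CPM and from 30.9 over 41 to 46.2 CPM and differed by 0.51. Dusp6, the phosphatase of ERK, differed by 0.94, with 6 of 10 high mice above all low mice. Stk11, the kinase upstream of AMPK, differed by 0.34. Tnfaip3, the inhibitor of NF-kB, differed by -0.21, Kitl by -0.21, Igf1 by -0.12 and Ifngr1, the receptor for interferon gamma, by -0.42. All 8 genes of translation and metabolism had a positive difference, with a median of 0.37. They included Rps26 at 0.57 and Rps12 at 0.49, whose counts can be shared with pseudogene copies, citrate synthase (Cs) at 0.45 and Hsp90b1 at 0.06. Over all 4 lists, 36 of 42 measured genes had a positive difference and the median was 0.34, beside 80.3% and 0.28 over the chromosome. The listed genes helped to choose the mice, so nothing is read from the counts of any of the 4 lists.

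The classes also overlapped in the genes at both ends of the chromosome 10 distribution. Among protein coding genes that averaged 10 CPM or more, the largest differences were those of Spock2 at 1.72, Tspan31 at 1.62, Tet1 at 1.52, Erbb3 at 1.46, Chst3 at 1.37, Map7 at 1.36, Srgn at 1.35 and Cnn2 at 1.34. In Chst3, a sulfotransferase gene, the medians were 1.07 and 0.732 CPM and mouse 881 alone reached 660 CPM. Tspan31 ran from 4.75 over 16.6 to 60.7 CPM against 2.9 over 5.24 to 6.63 CPM, and 8 of 10 high mice were above all low mice. Its gene overlaps the end of Cdk4 (127067280 to 127070264 against 127063534 to 127067920), and the strandedness of the counting is not given in the sources used here, so the split of reads between them is uncertain. Serglycin (Srgn), the proteoglycan of lymphocyte granules, ran from 47.6 over 127 to 315 CPM against 9.99 over 62.9 to 107 CPM. The smallest were Adarb1 at -1.28, Prss57 at -1.21, Olig3 at -1.05, Themis at -0.86, Ptprk at -0.83, Gm10273 at -0.74, Ahi1 at -0.68 and Gm9803 at -0.62. Themis, needed for the selection of thymocytes, had close medians, 159 and 168 CPM, and its lowest level, 0.842 CPM, was that of mouse 881. Ptprk, its neighbour, had 8.61 against 13.5 CPM.

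**Figure D4:**
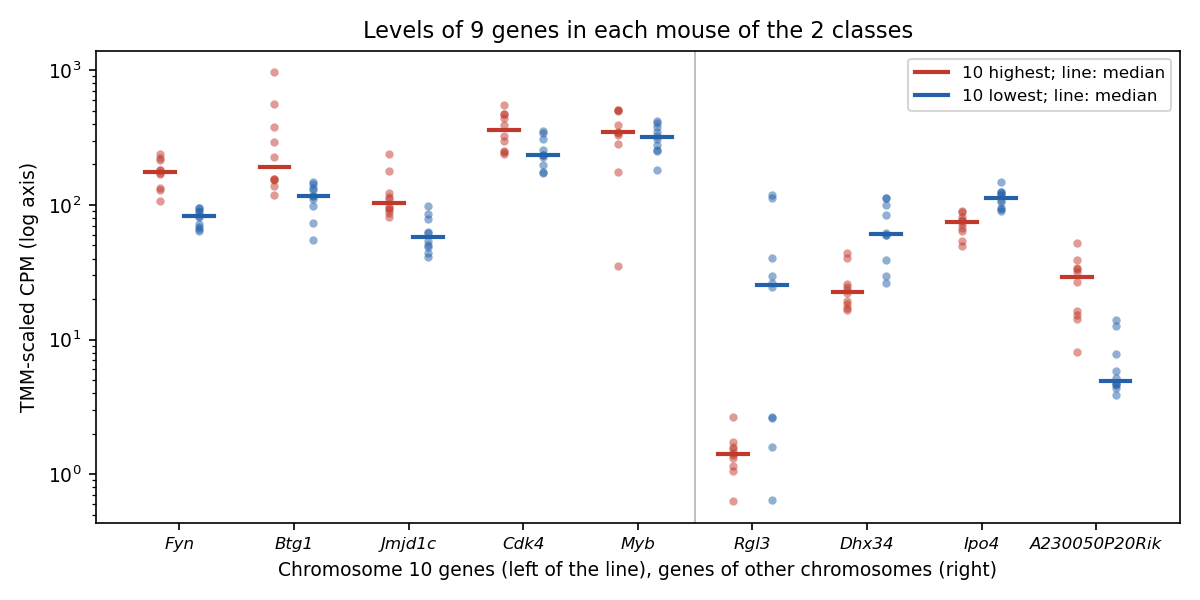
TMM-scaled CPM (log axis) of 9 genes in each of the 10 high and 10 low mice, with a line at each median; chromosome 10 genes are left of the vertical line. Fyn separates the classes without overlap, with 107 CPM or more against 94.4 or less, whereas Cdk4, Btg1 and Rgl3 overlap.

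On the other 18 autosomes, chromosome 14 was the one that differed between the classes, 1 of 18 tested (5.56%). The same centre enters the chromosome 10 value that chose the mice and the value of every other autosome. The permutation test does not allow for this. Its value ran from -0.17 over a median of 0.03 to 0.38 in the high class and from 0.19 over 0.46 to 0.67 in the low class. The means were 0.09 ± 0.17 and 0.46 ± 0.13 (SD, n = 10 each), a difference of -0.37 (permutation test, two-sided, p = 0.00026, adjusted p = 0.00468 over 18 autosomes). All 10 low mice exceeded every normal thymus on chromosome 14 and 4 of the 10 high mice did, while 6 of the 10 high mice were below every low mouse. Without mice 643 and 881 the difference was -0.38 (exact permutation test, adjusted p = 0.00658). Within the labelled groups it was -0.28 (permutation of classes within groups, p = 0.0372, adjusted p = 0.37). Among treated mice alone it was -0.26 (exact permutation test, p = 0.0455, adjusted p = 0.205). Neither passed, but only 3 treated mice were high, and 0 of the treated p53-/- mice. With so few arrangements of mice, neither test could call 1 autosome alone over 18, so no loss is read from them. In untreated p53-/- lymphomas the 7 high mice averaged 0.0474 ± 0.161 and the 1 low mouse had 0.505. In treated p53+/- lymphomas 3 high mice averaged 0.197 ± 0.177 and 3 low mice 0.367 ± 0.183, with overlapping ranges.

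Chromosomes 3, 4, 5, 7 and 15 came next and did not pass. Chromosome 5 averaged 0.25 ± 0.16 in the high and 0.48 ± 0.22 in the low class, a difference of -0.23 (permutation test, p = 0.0138, adjusted p = 0.0774). Chromosome 4 averaged 0.16 ± 0.21 and 0.36 ± 0.12, a difference of -0.20 (adjusted permutation p = 0.0774). Chromosome 15 differed by -0.15 (adjusted permutation p = 0.104), chromosome 7 by 0.10 (adjusted permutation p = 0.104) and chromosome 3 by 0.14 (adjusted permutation p = 0.0567), with -0.10 ± 0.12 against -0.24 ± 0.05. Without mouse 881 chromosome 5 passed as well, at -0.27 (exact permutation test, adjusted p = 0.0366). Centred on chromosome 6, chromosomes 4, 5, 14 and 15 all passed, with differences of -0.27, -0.31, -0.44 and -0.22 (adjusted permutation p = 0.0384, 0.0384, 0.0036 and 0.0384). Chromosome 6 itself lay under the range of normal thymus in both classes, 10 of 10 mice in each, at -0.29 ± 0.09 and -0.36 ± 0.07 (adjusted permutation p = 0.133).

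**Figure D5:**
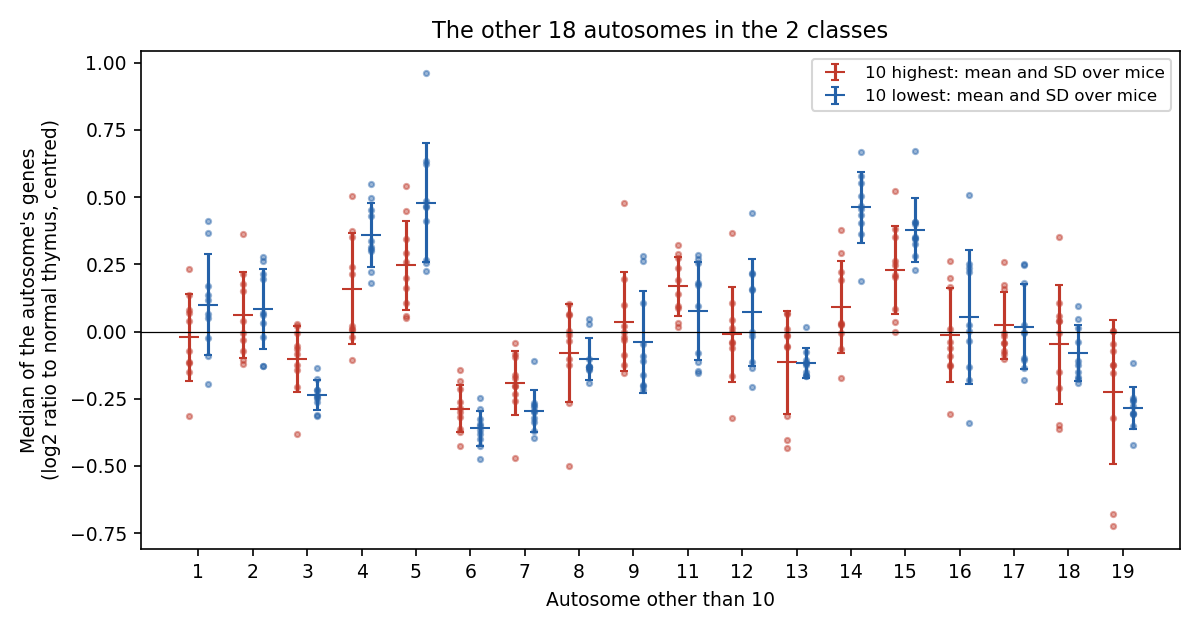
Median centred log2 ratio to normal thymus of each autosome other than 10 (y axis) by chromosome (x axis), with points for mice and bars for mean and SD of the 10 high and the 10 low mice. The classes are farthest apart on chromosome 14, at 0.09 and 0.46, and lie close together on chromosomes 2, 13 and 17.

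The low mice, as chosen on the centred value, carried more imbalance elsewhere. The SD over the 18 other autosomes of a mouse averaged 0.22 ± 0.049 in the high class and 0.291 ± 0.0334 in the low class (SD, n = 10 each), a difference of -0.0714 (permutation test, two-sided, p = 0.00082). Normal thymuses averaged 0.0282 ± 0.01. A low mouse had a median of 5.5 other autosomes at 0.2 or more above normal and 4 at 0.2 or more below, and a high mouse 3.5 and 2.5. The SD is the same on any centre, whereas these counts of autosomes and the choice of the mice are not. Other raised chromosomes lower a mouse's centred chromosome 10 value by construction, so the choice of low mice leans toward such mice. The permutation test does not allow for this, and how much of the difference comes from the choice was not tested. Without mice 643 and 881 the difference was -0.0672 (exact permutation test, p = 0.00311). Among treated mice alone it was -0.0683 (exact permutation test, p = 0.00909), and within the labelled groups it was -0.0626 (permutation within groups, p = 0.0698), no longer past the threshold.

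Among genes outside chromosome 10, edgeR's quasi-likelihood test with the labelled sex as covariate called 1 of 15595 genes (0.00641%) at an adjusted p under 0.05. At an unadjusted p under 0.05 there were 729 higher genes (4.67%) and 686 lower genes (4.4%), 9.07% in all. Over all 16370 genes tested, chromosome 10 included, 4 passed (0.0244%), and nothing is read from Tab2, Fyn and Eef2 among them, which lie on chromosome 10 and helped to choose the mice. DESeq2 called 165 of 15265 genes (68 higher, 97 lower). With the labelled lymphoma group added to the edgeR fit 0 of 16660 genes were called, with 331 higher and 345 lower at an unadjusted p under 0.05. Without mouse 643, mouse 881 or both, 0 were called. A fit on all 31 lymphomas with the chromosome 10 value as a number called 371 (281 higher and 90 lower with a rising value), of which the 1 gene called between the classes was one.

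The gene called was Rgl3 (ENSMUSG00000040146), which encodes an exchange factor for the GTPase Ral. In the high class it ran from 0.628 over 1.41 to 2.67 CPM, and in the low class from 0.644 over 25.3 to 118 CPM, with 2.88 to 11.6 CPM in normal thymuses. The log2 difference was -4.74 ± 0.81 (SE; edgeR adjusted p = 0.0396). The low class was divided: mice 490, 497, 637, 870, 309 and 553 had 24.4 CPM or more, and mice 659, 905, 869 and 884 had 2.68 CPM or less, within or next to the range of the high class. It passed in 13 of the 34 other fits that compared the classes, with a log2 difference of -5.08 to -3.88 and an adjusted p from 1.32e-08 to 0.69.

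Of the genes that did not pass, those with the smallest p in each direction are given with their values. Dhx34 (chromosome 7), an RNA helicase of nonsense-mediated decay, had 16.7 over 22.6 to 43.8 CPM in the high class and 26.3 over 60.9 to 112 CPM in the low class, a difference of -1.49 ± 0.28 (SE; edgeR adjusted p = 0.0631). In 8 of 10 high mice it was below every low mouse. Ipo4, Tgds and Reep4 were on chromosome 14. Of these Ipo4, a nuclear import receptor, had 49.9 over 74.1 to 90.7 CPM against 89.8 over 113 to 149 CPM, with 9 of 10 high mice below every low mouse, a difference of -0.66 ± 0.13 (SE; edgeR adjusted p = 0.0718). Normal thymuses had 23.4 to 41.7 CPM of Ipo4, less than either class. Its neighbour Tm9sf1, which the naming rule did not pick and was chosen after its values were seen, is one of the 3 genes lower in all high mice on the centred scale, at 0.32 ± 0.32 against 0.99 ± 0.25. Tgds and Reep4 differed by -1.10 and -0.63 (edgeR adjusted p = 0.0718 and 0.084). The other 2 genes without overlap were Coq5 on chromosome 5 and Fam71b on chromosome 11, also named after their values were seen.

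In the other direction, A230050P20Rik (chromosome 9) had 8.08 over 29.4 to 52.5 CPM in the high class and 3.85 over 4.94 to 14 CPM in the low class, a difference of 2.06 ± 0.37 (SE; edgeR adjusted p = 0.0555). Here 9 of 10 high mice were above every low mouse, and normal thymuses had 11.6 to 26.5 CPM. Mpzl2, a cell adhesion gene, had a median of 9.43 CPM against 1.73 CPM and reached 541 CPM in mouse 862, 276 CPM in mouse 157 and 72.6 CPM in mouse 280. Igfbpl1 had a median of 2.06 CPM against 0.0362 CPM and exceeded 100 CPM only in mice 643 and 862 of the high class, with 107 and 123. Ifi203 and Mndal, overlapping genes of the interferon-inducible p200 family on chromosome 1, differed by 2.04 and 2.09 (edgeR adjusted p = 0.0718 and 0.117). Because their positions overlap, the reads between them cannot be divided with certainty. The low class had medians of 17.8 and 17.2 CPM, below the 94.9 and 71 CPM of the high class and the 88.2 and 86.4 CPM of normal thymus.

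By chromosome, chromosome 14 held the largest number of genes lower in the high class at an unadjusted edgeR p under 0.05: 158 of its 585 tested genes were lower at that level, 14 were higher and 0 passed the adjusted test, with a median difference of -0.37. Chromosome 5 had 96 lower and 22 higher of 1089, and chromosome 4 had 80 and 31 of 1000. On chromosome 7, 120 of 1237 were higher and 13 lower. Over all 15595 genes tested on other chromosomes, 4.4% were lower and 4.67% higher at that level in the same fit. With the labelled group in the fit, 52 of the 585 chromosome 14 genes were lower and 7 higher, with a median of -0.31. Of the 15595 genes tested in the main fit, 317 were lower and 305 higher at an unadjusted edgeR p under 0.05 with the group added.

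No list of genes on other chromosomes had a member past the adjusted test. Of 12 genes of mitosis that act with Cdk1, 10 had a negative difference and 6 had an unadjusted edgeR p under 0.05, all lower, where 4.4% of all genes tested were lower at that level. Their median was -0.29 against 0.04 for all 15595 genes tested, of which 8535 had a positive difference. Among them were Cdc20, the activator of the anaphase-promoting complex, at -0.55 ± 0.18 and the kinase gene Aurka at -0.57 ± 0.20 (SE; edgeR adjusted p = 0.261 and 0.292). With the labelled group in the fit 1 of the 12 had an unadjusted p under 0.05 and the median was -0.12. Of 10 genes of Notch receptors and targets, 8 had a positive difference, with a median of 1.04, and 3 were higher at an unadjusted edgeR p under 0.05, namely Il2ra, Heyl and Hes5, beside 4.67% of all genes. With the labelled group in the fit 0 of the 10 had such a p and the median was 1.16. Without mouse 643, and with no group in the fit, the median was 0.57. DESeq2 called 1 of the 10, beside 165 of the 15265 genes it tested on other chromosomes.

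The lists that follow stand beside all 15595 genes tested on other chromosomes, of which 8535 had a positive difference. At an unadjusted edgeR p under 0.05, 4.67% of them were higher and 4.4% lower. Of 10 p53 targets off chromosome 10, 7 had a positive difference with a median of 0.24, and Pmaip1, the death gene Noxa, had 1.66 ± 0.57 (SE; edgeR adjusted p = 0.27). Of 14 genes of G1 cyclins, partners and inhibitors the median was -0.13, with 1 higher (Cdkn2b at 1.02) and 2 lower (Rb1 and Cdkn2c) at an unadjusted edgeR p under 0.05. Rb1, on chromosome 14, differed by -0.70 ± 0.21 (SE; edgeR adjusted p = 0.204). With the labelled group in the fit 0 of the 14 were higher and 1 lower at that unadjusted level, with a median of -0.06. Of 11 NF-kB feedback genes 8 had a positive difference with a median of 0.27, and of 12 interferon response genes 8 with a median of 0.29, though both medians were -0.07 with the labelled group in the fit. Without mouse 881 the NF-kB median was 0.10 and the interferon median 0.23. Of 10 partners and reported targets of Myb 5 had a positive difference with a median of -0.03, which was -0.10 without mice 643 and 881 and -0.20 with the labelled group in the fit. Of 15 thymocyte stage genes 3 had a positive difference. At an unadjusted edgeR p under 0.05, 1 was higher, Lef1 at 0.85, and 0 were lower. Their median was -0.41, with Dntt at -1.75 ± 0.85 and Rag1 at -1.59 ± 0.96 (SE; edgeR adjusted p = 0.493 and 0.615), and with the labelled group in the fit it was -0.74.

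Beside these differences stand the markers of other cells. The 8 B-lineage genes had a median difference of 3.0, with 6 higher at an unadjusted edgeR p under 0.05, beside 4.67% of all genes. Without mouse 881 it was 1.22 with 1 such gene, and with the labelled group in the fit 0.94 with 0. The T-lineage sum had a median of 2600 CPM in the high and 3050 CPM in the low class, and its 10 genes a median difference of 0.19, or 0.31 without mouse 881. Summed myeloid markers ran from 439 to 806 CPM and from 380 to 1080 CPM. Thymic epithelial markers ran from 17.6 to 384 CPM and from 21.5 to 152 CPM, against 193 to 2360 CPM in normal thymus. The 193 CPM was that of mouse 387, and the next lowest normal thymus had 1230 CPM. Fat markers ran from 37.4 to 97.8 CPM and from 44.7 to 125 CPM, against 692 to 10100 CPM in normal thymus. The 10100 CPM was that of mouse 387, and the next highest normal thymus had 3920 CPM. Endothelial and stromal markers ran from 238 to 1210 CPM and from 218 to 1310 CPM. Erythroid markers had medians of 461 and 228 CPM and reached 3250 and 3430 CPM. The part of these cells in the differences above was not tested.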

How the data were processed

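RNA sequencing libraries of thymic lymphoma and normal thymus were analysed from the table of RSEM expected counts per gene that the authors deposited, whose 81 columns were each matched to a sample by name. The submitters' processing notes name CASAVA 1.8, fastp, STAR 2.7.2b, RSEM 1.1.17 and build mm10; strandedness is not given in the sources used here. The deposited estimated counts were not whole in 14.25% of cells. The biopsies of a mouse were summed, so the mouse was the replicate, and sums were rounded for count tests. Gene positions came from GENCODE M21 by Ensembl ID, which matched 99.63% of IDs. The members and gene lists were chosen with earlier results of these data known.

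The chromosome value used autosomal genes that averaged 1 CPM or more, log2(CPM+1), and the mean of 8 normal thymuses as reference. Differences between classes of 10 were tested by two-sided permutation with 100000 resamples (exact where a class was smaller), labels by Fisher's exact test, and genes by edgeR 4.0.16 (TMM, filterByExpr, robust quasi-likelihood fit) in R 4.3.3, with Benjamini-Hochberg adjustment over all genes tested. DESeq2 1.42.0 and limma 3.58.1 voom were alternatives. Python 3.11.15 and scipy 1.17.1 were used for the rest. The procedures were tested on simulated data. Off chromosome 10 the 5 genes of smallest p in each direction were named, because fewer than 5 passed. On chromosome 10 the 8 largest and the 8 smallest differences among protein coding genes averaging 10 CPM or more and the listed genes were named. Mouse totals of 5.01 M to 98.59 M counts leave genes of a few CPM with little counting precision in the shallowest mice.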

Additional observations from a re-analysis of the deposited data

Results flagged for a closer look

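In 7 of 62 sets of 10 or fewer mice examined, 1 mouse stood farther from its nearest neighbour, relative to the range of its class, than Dixon's 95% critical value allows (0.466 for 10 mice). Chance alone gives about 1 in 20 such sets. On chromosome 7, mouse 157 of the high class was at -0.47, while the others of its class ran from -0.259 to -0.0418, and mouse 905 of the low class was at -0.109, while the others ran from -0.396 to -0.266. On chromosome 13, mouse 870 of the low class was at 0.0175, above the -0.167 to -0.0768 of the others. On chromosome 15, mouse 884 of the low class was at 0.673, above the 0.229 to 0.407 of the others. Mouse 562 of the high class had an SD of 0.108 over the other 18 autosomes, where the others had 0.2 to 0.291. The 10 most abundant genes took 42.1% of the counts of mouse 643, against 4.42% to 9.59% in the rest of the high class, and 7.06% in mouse 884, against 4.79% to 5.44% in the rest of the low class.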

How the results depend on the processing

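Of the 18 autosomes, 1 differed on the original scale. The count was 2 (1 higher, chromosome 3, and 1 lower) when each mouse was centred on genes outside chromosome 10, at a mean CPM of at least 10 or 0.1, on log2(CPM+0.1), and with 1 biopsy per mouse. It was 2 (both lower, with chromosome 5) without mouse 881 and without mice 643 and 881, 3 lower on the median of the 19 chromosome medians and 4 lower on chromosome 6. It was 0 within labelled groups and 0 among treated mice alone, where too few arrangements of mice exist to call 1 autosome alone. The chromosome 14 difference kept its sign in all 16 alternatives. The difference in imbalance was -0.0626 within labelled groups (permutation p = 0.0698).

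The count of genes on other chromosomes was 1 with edgeR (Rgl3), 1 with limma voom and 1 without the 3 high mice nearest the middle (in both a gene other than Rgl3), 165 with DESeq2, 31 with no sex covariate, 6 with sex read from the genes, 7 with all 31 lymphomas in 3 classes, 371 with the chromosome 10 value as a number and 2 among treated mice alone. It was 0 with chromosome 10 genes left out, 0 with no filter, 0 with the labelled group added and 0 without mice 643 and 881. Leaving out each mouse in turn gave 0 to 9, with 0 in 13 of 20 refits and 9 without mouse 98. The cause was not tested. The leave-out of mice 643 and 881 and the centres on chromosome 6 and on chromosome medians were added after seeing the data. No paired analysis was possible because each mouse is in 1 class and the replicate numbers pair no mice. The total count and the spread between tumours limit what 10 against 10 mice can show, class and treatment overlap in their labels, and no result reads DNA copies.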
